A study of Mus musculus with 10 samples.

Results

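The PAK kinases *Pak1*, *Pak2*, *Pak3*, *Pak4* and *Pak6* and the Ena/VASP genes *Enah*, *Vasp* and *Evl* were followed in mouse embryonic stem cells (mESCs) that lack a subunit of MiDAC, a histone deacetylase complex. These 8 genes were taken by symbol from a table of 34591 genes, and each was present once with a value in all 10 RNA-seq libraries. The WT cells were male C57/BL6 Bruce-4 mESCs. *Dnttip1* was disrupted in these cells with CRISPR/Cas9 to give clones D2A7 and D1E6, *Elmsan1* to give clones E2E8 and E2G7, each from a single sorted GFP-positive cell, and 2 libraries were made of every line. All lines, WT included, grew on gelatin in 2iL medium, which holds LIF, the GSK3β inhibitor CHIR 99021 and the MEK inhibitor PD 0325901, so every comparison was made under MEK inhibition. The labels and the series' design text number the *Dnttip1* KO clones in opposite order, and the clone codes are used here. A knockout is represented by 2 clones and WT by 1 line, so WT has no spread between clones. The labels do not say whether the libraries of a line came from separate cultures, so the spread within a line may be technical. Unless stated, tests of a knockout took its 4 libraries as independent, so their p-values may be too small. The estimated correlation of libraries within a clone was 0.704 for *Dnttip1* KO against WT and 0.768 for *Elmsan1* KO against WT. Both knockouts were compared with the same WT libraries.

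PAK kinases are serine/threonine kinases that carry signals from the small GTPases Cdc42 and Rac to the actin cytoskeleton. PAK1, PAK2 and PAK3 form group I, which is held inactive by an autoinhibitory segment until a GTPase binds, and PAK4 and PAK6 belong to group II. Ena/VASP proteins sit at the growing ends of actin filaments, keep capping proteins away and pass on actin bound to profilin, and with the PAK kinases they are known for their part in lamellipodia, filopodia and the growth cones of neurites.

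Levels are given as FPKM, fragments scaled by exon length and by library size, and can therefore be compared between genes. The libraries held from 30182379 to 84291842 fragments on genes, as recovered from the FPKM values, with fewer in WT than in any clone. The targeted gene *Dnttip1* measured 8.29 ± 0.193 FPKM in WT (SD, n = 2), 4.57 ± 0.00724 in D2A7 and 2.61 ± 0.0306 in D1E6. *Elmsan1*, listed as *C130039O16Rik*, measured 5.46 ± 0.0979 FPKM in WT, 5.05 ± 0.185 in E2E8 and 4.69 ± 0.0947 in E2G7, so its RNA level does not by itself check the *Elmsan1* KO label. All 10 markers of embryonic stem cells had a mean of at least 1 FPKM in WT and in both knockouts. Of 8 fibroblast markers none reached that level. The summed FPKM of 6 neural progenitor markers was 4.39 to 4.73 in WT, 8.94 to 13.9 in *Dnttip1* KO and 6.33 to 9.56 in *Elmsan1* KO libraries. Nearly all of this was *Nes*, and *Pax6* stayed at or under 0.0253 FPKM in every library. *Sox1*, of the same list, was 0.374 and 0.457 FPKM in WT and higher in D2A7, at 0.801 and 0.866. In D1E6, E2E8 and E2G7 it was lower than in WT, at 0.282 to 0.325. The summed level of 8 neuron markers was 143 to 151 FPKM in WT and 97.8 to 150 in the KO libraries. This sum was nearly all *Tubb3* and *Stmn2*, so it hides their separate differences from WT. *Stmn2* was 91.1 and 86.8 FPKM in WT and lower in every clone, at 51.8 to 62.4. *Tubb3* was 57.9 and 53.9 FPKM in WT. It was higher in D2A7, D1E6 and E2G7, at 70.6 to 87.2, and lower in E2E8, at 46.4 and 44.3. *Dcx* was at 0 in WT. In bulk RNA, fewer cells of a kind and less RNA per cell cannot be told apart, and the part of these lists in the results that follow was not tested.

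In WT mESCs the 8 genes spanned a wide range of levels. *Enah* was highest at 74.6 ± 0.346 FPKM (SD, n = 2), followed by *Vasp* at 46.7 ± 0.619. *Pak4* at 21.7 ± 1.17 and *Pak2* at 21.5 ± 0.755 came next and did not differ beyond their spread. *Pak1* at 9.31 ± 0.507 and *Evl* at 6.54 ± 0.367 were lower, and their libraries did not overlap. *Pak3* at 0.218 ± 0.0198 and *Pak6* at 0.207 ± 0.0644 were close to the limit of what was tested and did not differ from each other beyond their spread. WT mESCs thus held RNA of all 3 Ena/VASP genes, mostly *Enah* and *Vasp*, whereas their PAK RNA was nearly all *Pak2*, *Pak4* and *Pak1*.

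**Figure D1:**
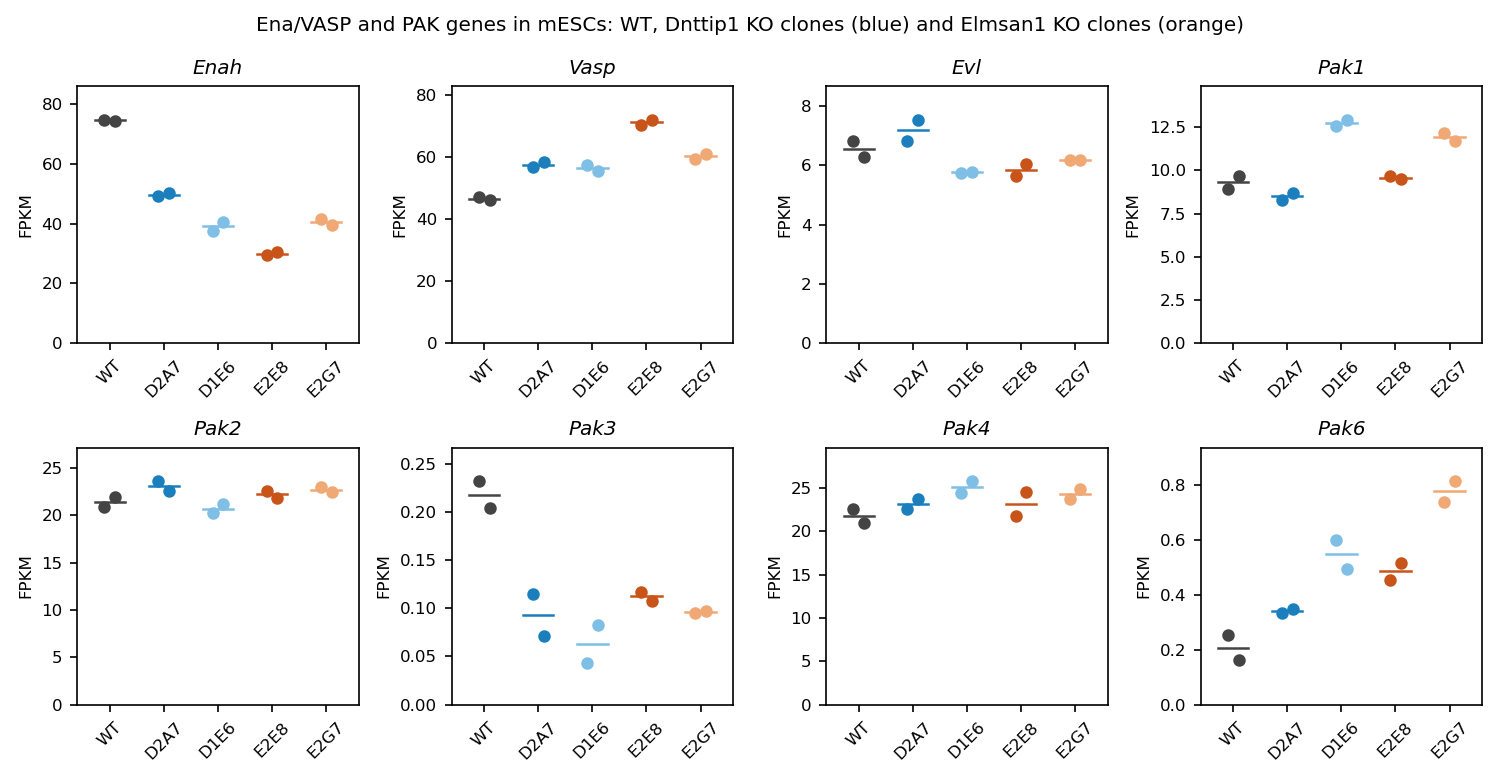
FPKM of the 8 genes (y axes, each from 0) in WT mESCs, in D2A7 and D1E6 (*Dnttip1* KO) and in E2E8 and E2G7 (*Elmsan1* KO) (x axes), with a point for each of the 2 libraries of a line and a bar at their mean. *Enah* and *Pak3* lie below WT in all 8 KO libraries and *Vasp* and *Pak6* above it, while *Pak1* differs mainly between clones.

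Each knockout was then compared with WT by limma's moderated test on log2(FPKM + 0.1) over all genes. A gene was called when it differed by at least 1.5-fold with an unadjusted p under 0.01, the rule of the study, and adjusted p-values are over all genes tested. Of the 8 genes, 2 were called lower in *Dnttip1* KO, *Enah* and *Pak3*, against 3.24% of all 17435 genes tested, and 0 were called higher, against 3.26%, although 2, *Vasp* and *Pak6*, were higher at an unadjusted p under 0.05, as were 14.1% of all genes. In *Elmsan1* KO 2 were called lower, again *Enah* and *Pak3*, against 3.68% of 17205 genes, and *Pak6* was called higher, against 2.74%. *Pak3* entered the test of *Dnttip1* KO only through its WT libraries, where it was high, so the count that includes it is a description. The median log2 difference of the 8 genes was 0.06 in *Dnttip1* KO and 0.07 in *Elmsan1* KO, beside 0.02 and 0.00 for all genes.

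*Enah* encodes the mammalian Enabled protein, MENA. The gene (ENSMUSG00000022995) spans 183834576 to 183950111 on the minus strand of chromosome 1 (NCBIM37, as for all positions of genes). It was measured at 74.8 and 74.3 FPKM in the WT libraries, 49.1 and 50.2 in D2A7, 37.5 and 40.6 in D1E6, 29.4 and 30.4 in E2E8, and 41.5 and 39.4 in E2G7. All 8 KO libraries lay below both WT libraries, and the gap was larger than the spread within any line. The log2 difference was -0.79 in *Dnttip1* KO (standard error 0.134, 95% interval -1.11 to -0.46, adjusted p = 0.0227) and -1.12 in *Elmsan1* KO (standard error 0.16, interval -1.51 to -0.74, adjusted p = 0.0117). *Enah* RNA was therefore 1.72-fold lower in the first knockout and 2.18-fold lower in the second. Each clone alone was lower too, with log2 differences from WT of -0.61 in D2A7, -0.96 in D1E6, -1.34 in E2E8 and -0.90 in E2G7. *Enah* was the only one of the 8 genes called in every clone tested alone. These fits share the WT libraries and called 2513 genes in D2A7, 1607 in D1E6, 2536 in E2E8 and 1584 in E2G7. How many of all genes were called in every clone was not counted. Without WT replicate 1, which leaves a single WT library, the *Dnttip1* KO difference of -0.75 was no longer called (adjusted p = 0.181). When libraries within a clone were taken as correlated, the adjusted p was 0.0998 in *Dnttip1* KO and 0.0673 in *Elmsan1* KO, and both differences were still called.

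*Vasp* encodes the founding member of the family and lies on the minus strand of chromosome 7 from 19842278 to 19857166 (ENSMUSG00000030403). Its difference from WT had the opposite sign to that of *Enah*. Its level was 47.1 and 46.3 FPKM in WT, 56.9 and 58.4 in D2A7, 57.6 and 55.5 in D1E6, 70.5 and 72.2 in E2E8, and 59.5 and 61.1 in E2G7. Every KO library lay above both WT libraries, with E2E8 apart from the other clones. The log2 difference was 0.26 in *Dnttip1* KO (standard error 0.05, adjusted p = 0.0307) and 0.47 in *Elmsan1* KO (standard error 0.0926, adjusted p = 0.0285). These are 1.2-fold and 1.38-fold, under the threshold of 1.5, so *Vasp* was not called in either comparison. When libraries within a clone were taken as correlated, the adjusted p was 0.321 and 0.184.

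*Evl*, the Ena/VASP-like gene, lies on the plus strand of chromosome 12 from 109792930 to 109926723 (ENSMUSG00000021262). It measured 6.80 and 6.28 FPKM in WT, 6.83 and 7.54 in D2A7, 5.75 and 5.78 in D1E6, 5.64 and 6.03 in E2E8, and 6.17 and 6.16 in E2G7. The D2A7 libraries were the highest, and the remaining KO libraries lay just under WT. *Evl* did not pass the test in *Dnttip1* KO (log2 difference -0.05, interval -0.38 to 0.28, adjusted p = 0.851) or in *Elmsan1* KO (-0.15, interval -0.35 to 0.06, adjusted p = 0.31). The annotation places 485 bases of *Degs2*, a gene of the opposite strand, on *Evl* exons, which is 18.0% of their length, and *Degs2* itself averaged 0.0141 FPKM.

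Because *Enah* fell while *Vasp* was higher, the make-up of the family differed between WT and KO mESCs. The ratio of *Enah* to *Vasp* FPKM was 1.59 and 1.61 in WT, 0.863 and 0.858 in D2A7, 0.651 and 0.733 in D1E6, 0.417 and 0.421 in E2E8, and 0.697 and 0.644 in E2G7. *Enah* was thus the more abundant of the pair in both WT libraries and *Vasp* in all 8 KO libraries. *Enah* made up 58.3% ± 0.337 of the summed Ena/VASP FPKM in WT (SD, n = 2 libraries, as for each clone). Its share was 43.4% ± 0.233 in D2A7, 38.5% ± 1.91 in D1E6, 27.9% ± 0.102 in E2E8 and 37.8% ± 1.27 in E2G7. The share of *Evl* was 4.95% to 5.28% in WT and 5.34% to 6.49% in KO libraries. The sum of the 3 genes was 127 and 129 FPKM in WT and 101 to 116 in KO libraries, so the total fell less than *Enah* did. For such single values, an exact permutation test on the absolute difference of 4 KO from 2 WT libraries cannot give a p under 0.0667, and none is given.

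**Figure D2:**
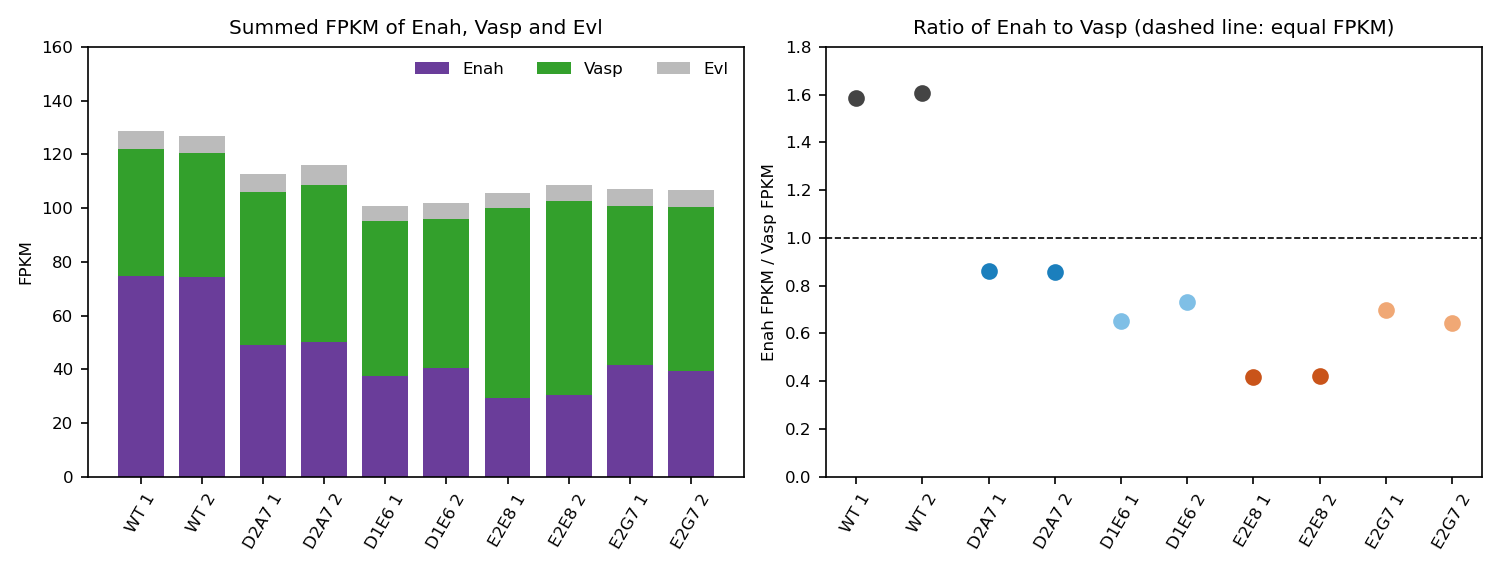
Left, FPKM of *Enah*, *Vasp* and *Evl* stacked for each of the 10 libraries. Right, the ratio of *Enah* to *Vasp* FPKM in the same libraries with a dashed line at equal levels. The ratio is 1.59 and 1.61 in WT and between 0.417 and 0.863 in the KO libraries, while the summed level moves from 127 and 129 to between 101 and 116 FPKM.

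The stretches upstream of these genes are printed because *Enah* and *Vasp* differed from WT with opposite signs. They hold the 250 bases before the RefSeq start of each gene in GRCm38.p6, 5′ to 3′ on the minus strand, chr1:182019981-182020230 for *Enah* and chr7:19271855-19272104 for *Vasp*. Capitals mark GC boxes, the letters GGGCGG on either strand, which may overlap.

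Enah: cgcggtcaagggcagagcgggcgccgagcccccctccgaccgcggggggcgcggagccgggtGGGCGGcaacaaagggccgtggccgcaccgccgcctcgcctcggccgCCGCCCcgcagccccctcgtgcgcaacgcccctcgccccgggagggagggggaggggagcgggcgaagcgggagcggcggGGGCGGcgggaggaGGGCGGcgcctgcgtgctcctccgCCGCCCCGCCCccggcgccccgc

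Vasp: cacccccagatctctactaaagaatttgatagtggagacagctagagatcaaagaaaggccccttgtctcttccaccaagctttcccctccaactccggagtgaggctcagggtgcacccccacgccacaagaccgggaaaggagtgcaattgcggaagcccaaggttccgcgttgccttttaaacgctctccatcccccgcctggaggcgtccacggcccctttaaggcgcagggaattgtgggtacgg

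Counted with the first 50 transcribed bases, the *Enah* window held 49 CG dinucleotides and 83.3% G and C, more CG than 99.0% of 32851 mouse promoters of this length. Its 6 GC boxes all lie in the stretch shown, and 35.7% of all promoters hold at least 1. The *Vasp* window held 13 CG dinucleotides and 54.3% G and C, closer to the medians of 7 and 52.7% over all promoters, and no GC box. Neither window held the CCAAT box (CCAAT, in 37.4% of promoters), the E-box CACGTG (7.15%), the CRE core TGACG (20.8%) or the CArG box (1.63%), each searched on both strands. RefSeq windows were at hand for 7 of the 8 genes, with *Pak2* missing. The first window of *Pak1* held 4 GC boxes and 5 CRE cores, that of *Pak4* 3 GC boxes and 4 CCAAT boxes, and that of *Evl* 3 GC boxes, while the first windows of *Pak3* and *Pak6* held no GC box. *Pak1*, *Pak3*, *Pak6* and *Evl* have further windows. The second window held 2 GC boxes for *Pak6*, 4 for *Pak1* and 0 for *Evl*. Which start is used in these cells was not tested.

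Among the group I kinases, *Pak2*, the most widely transcribed of them, did not pass the test in either knockout. The gene (ENSMUSG00000022781, minus strand of chromosome 16, 32016376 to 32079428) measured 20.9 and 22.0 FPKM in WT, 23.6 and 22.6 in D2A7, 20.2 and 21.2 in D1E6, 22.6 and 21.8 in E2E8, and 22.9 and 22.5 in E2G7. WT and KO libraries overlapped in both comparisons. The log2 difference was 0.00 in *Dnttip1* KO (interval -0.18 to 0.18, adjusted p = 0.99) and 0.04 in *Elmsan1* KO (interval -0.07 to 0.16, adjusted p = 0.6).

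*Pak1*, the founding PAK, known for its action on LIM kinase and at membrane ruffles, varied from clone to clone. The gene (ENSMUSG00000030774) lies on the plus strand of chromosome 7 from 104937051 to 105060891. It was measured at 8.95 and 9.67 FPKM in WT, 8.29 and 8.69 in D2A7, 12.6 and 12.9 in D1E6, 9.66 and 9.50 in E2E8, and 12.2 and 11.7 in E2G7. D2A7 lay under WT, E2E8 within the WT range, and D1E6 and E2G7 above it. Neither knockout differed from WT by the test (log2 differences 0.14 and 0.17, adjusted p = 0.711 and 0.406). *Pak1* made up 30.0% ± 0.432 of the group I FPKM in WT, 26.8% ± 1.29 in D2A7, 38.1% ± 0.342 in D1E6, 30.0% ± 0.28 in E2E8 and 34.3% ± 0.331 in E2G7 (SD, n = 2 each).

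*Pak3*, a kinase known mainly from neurons and linked to intellectual disability in people, was transcribed at a very low level. It lies on the plus strand of the X chromosome from 139953134 to 140232335 (ENSMUSG00000031284). The WT libraries had 0.232 and 0.204 FPKM, D2A7 0.115 and 0.0709, D1E6 0.0434 and 0.0823, E2E8 0.117 and 0.108, and E2G7 0.0949 and 0.0969. All 8 KO libraries lay below both WT libraries. These values rest on 69 and 74 fragments in WT and on 20 to 85 in KO libraries, which were sequenced more deeply. In *Dnttip1* KO the gene entered the fit only through the WT libraries, where it was high, so its log2 difference of -0.87 (interval -1.44 to -0.31) is given as a description without its p-value. In *Elmsan1* KO the log2 difference was -0.66 (standard error 0.18, adjusted p = 0.0704), which passed the call rule but not an adjusted p of 0.05. The pseudocount of 0.1 shrinks a difference at this level. The ratio of mean FPKM to WT was 0.356 and 0.477, and voom on the recovered fragments gave log2 differences of -1.54 in *Dnttip1* KO and -1.09 in *Elmsan1* KO (adjusted p = 0.0238 for the latter). Both calls were lost with a pseudocount of 1 or 0.01, with the replicate number as a block, with each clone tested alone, when libraries within a clone were taken as correlated (adjusted p = 0.609 in *Elmsan1* KO) and without either WT library. The *Dnttip1* KO call was also lost without D2A7 replicate 2 or either D1E6 library, and the *Elmsan1* KO call without any 1 of its 4 libraries and with the FPKM unscaled or quantile normalized.

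The group II kinase *Pak4*, which is required for embryonic development in mice, did not pass the test in either knockout. The gene (ENSMUSG00000030602, minus strand of chromosome 7, 29343838 to 29383204) measured 22.6 and 20.9 FPKM in WT, 22.6 and 23.7 in D2A7, 24.5 and 25.8 in D1E6, 21.8 and 24.6 in E2E8, and 23.8 and 24.9 in E2G7. The *Dnttip1* KO libraries all lay above WT by a narrow margin in these unscaled values, and the *Elmsan1* KO libraries overlapped with it. The scale factors were 0.965 for WT replicate 1 and 1.00 for D2A7 replicate 1. After scaling, D2A7 replicate 1 lay below WT replicate 1. The log2 differences of 0.12 (interval -0.06 to 0.30, adjusted p = 0.333) and 0.10 (interval -0.09 to 0.29, adjusted p = 0.449) had intervals that include 0.

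*Pak6*, a group II kinase first found as a partner of the androgen receptor, was near the floor in WT and higher in every clone. It lies on the plus strand of chromosome 2 from 118489039 to 118523756 (ENSMUSG00000074923). Its level was 0.253 and 0.162 FPKM in WT, 0.334 and 0.350 in D2A7, 0.600 and 0.496 in D1E6, 0.456 and 0.517 in E2E8, and 0.738 and 0.815 in E2G7. The 8 KO libraries all lay above both WT libraries. The WT values rest on 41 and 32 fragments and the KO values on 97 to 367. *Pak6* rose in *Elmsan1* KO by a log2 difference of 1.22 (standard error 0.277, interval 0.55 to 1.89, adjusted p = 0.0423), and the ratio of mean FPKM to WT was 3.04. In *Dnttip1* KO the log2 difference was 0.79 (standard error 0.272, interval 0.13 to 1.45, adjusted p = 0.127) with a ratio of 2.14, which was not called. The *Elmsan1* KO call was lost without E2G7 replicate 1 (log2 1.14) or WT replicate 2 (0.98), with a pseudocount of 1, with E2E8 alone (0.92), and when libraries within a clone were taken as correlated (adjusted p = 0.366). The *Dnttip1* KO difference passed with all 10 libraries in a single fit (adjusted p = 0.00406) and with D1E6 alone (log2 1.06, adjusted p = 0.0322), but not with D2A7 alone (0.52, adjusted p = 0.137).

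The ratio of *Pak6* to *Pak3* FPKM, the 2 least abundant PAK genes of the set, was 1.09 and 0.792 in WT, 2.91 and 4.94 in D2A7, 13.8 and 6.02 in D1E6, 3.88 and 4.81 in E2E8, and 7.78 and 8.40 in E2G7. They were thus level with each other in WT, and *Pak6* was the higher in all 8 KO libraries. Together they remained a small part of PAK RNA. *Pak3* made up 0.642% to 0.772% of group I FPKM in WT and 0.132% to 0.363% in KO libraries, and *Pak6* made up 0.768% to 1.11% of the *Pak4* and *Pak6* sum in WT and 1.45% to 3.17% in KO libraries. The 5 PAK genes summed to 52.9 FPKM in each WT library and to 54.6 to 60.5 in KO libraries. The remaining group II gene, *Pak7*, had 4 to 10 fragments in each of the 10 libraries and was too low to be tested.

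**Figure D3:**
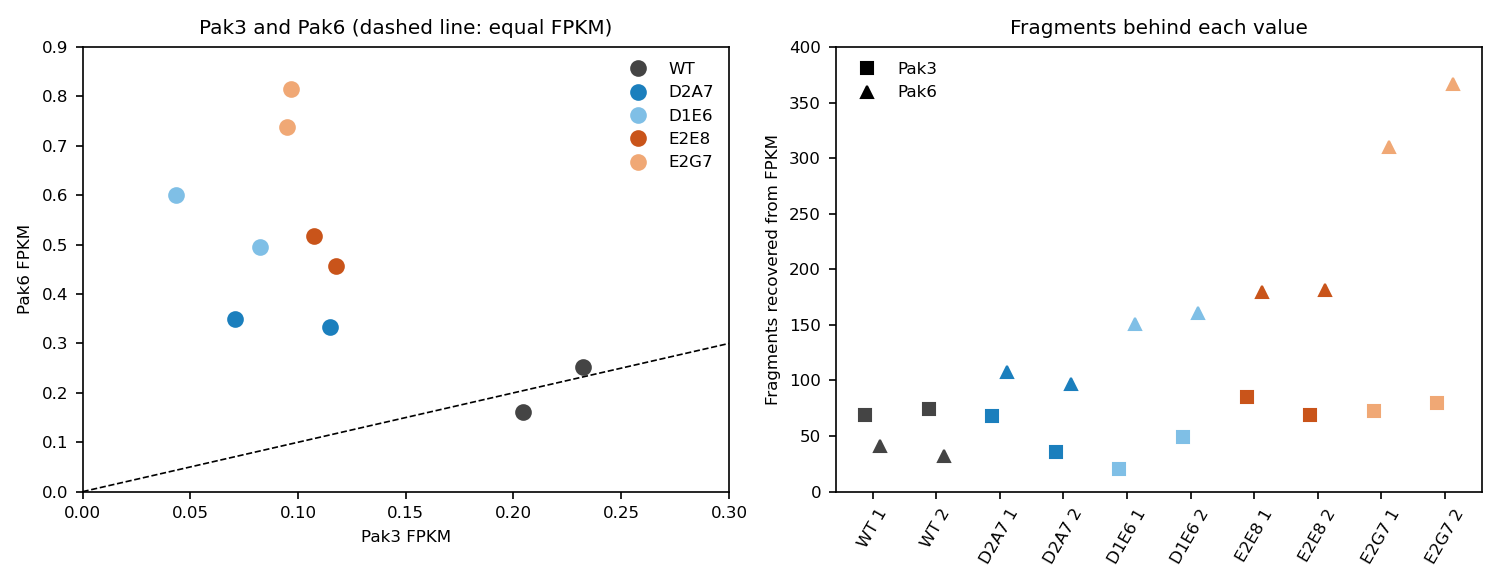
Left, *Pak6* FPKM (y axis) against *Pak3* FPKM (x axis) in the 10 libraries, coloured by line, with a dashed line at equal levels. Right, the fragments behind the same values in each library. The WT libraries lie near the line of equal levels and all 8 KO libraries above it, on 20 to 85 fragments of *Pak3* and 97 to 367 of *Pak6*.

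The libraries were also counted alone, on FPKM as deposited, without the scaling used in the tests. *Enah* and *Pak3* lay below both WT libraries in all 4 *Dnttip1* KO libraries, 2 of 8 genes against 17.4% of all genes tested. *Vasp*, *Pak4* and *Pak6* lay above, 3 of 8 against 23% of all genes. After scaling, *Pak4* overlapped with WT. In *Elmsan1* KO, *Enah*, *Evl* and *Pak3* lay below, 3 of 8 against 18.8%, and *Vasp* and *Pak6* above, 2 of 8 against 22.4%. These shares are not far from those of all genes, so the count of genes that lay apart from WT says little about the set. *Pak3* entered the *Dnttip1* KO comparison only through its WT libraries, so the count that includes it is a description. The median size of the log2 difference was 0.20 for the 8 genes in *Dnttip1* KO and 0.32 in *Elmsan1* KO, against 0.21 for all genes in both.

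The knockouts were then compared with each other, 4 libraries against 4. None of the 8 genes was called by limma or by voom, with 0 lower in *Dnttip1* KO against 0.415% of 17600 genes and 0 higher against 1.11%. Voom called 1.57% of all genes here. At an unadjusted p under 0.05, which 6.61% of all genes passed as lower and 9.2% as higher, *Enah* was higher in *Dnttip1* KO by 0.34 on the log2 scale (interval 0.01 to 0.66, adjusted p = 0.31) and *Vasp* lower, with -0.20 (interval -0.36 to -0.05, adjusted p = 0.296). *Vasp* was the only gene of the set whose *Dnttip1* KO libraries, at 55.5 to 58.4 FPKM, did not overlap with the *Elmsan1* KO libraries, at 59.5 to 72.2. The share of all genes that lay apart in this way was not counted, so nothing is read from it about the set. *Pak6* had a log2 difference of -0.43 with a wide interval of -0.95 to 0.10. *Pak1*, *Pak2*, *Pak4* and *Evl* differed by 0.10 or less on the log2 scale.

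**Figure D4:**
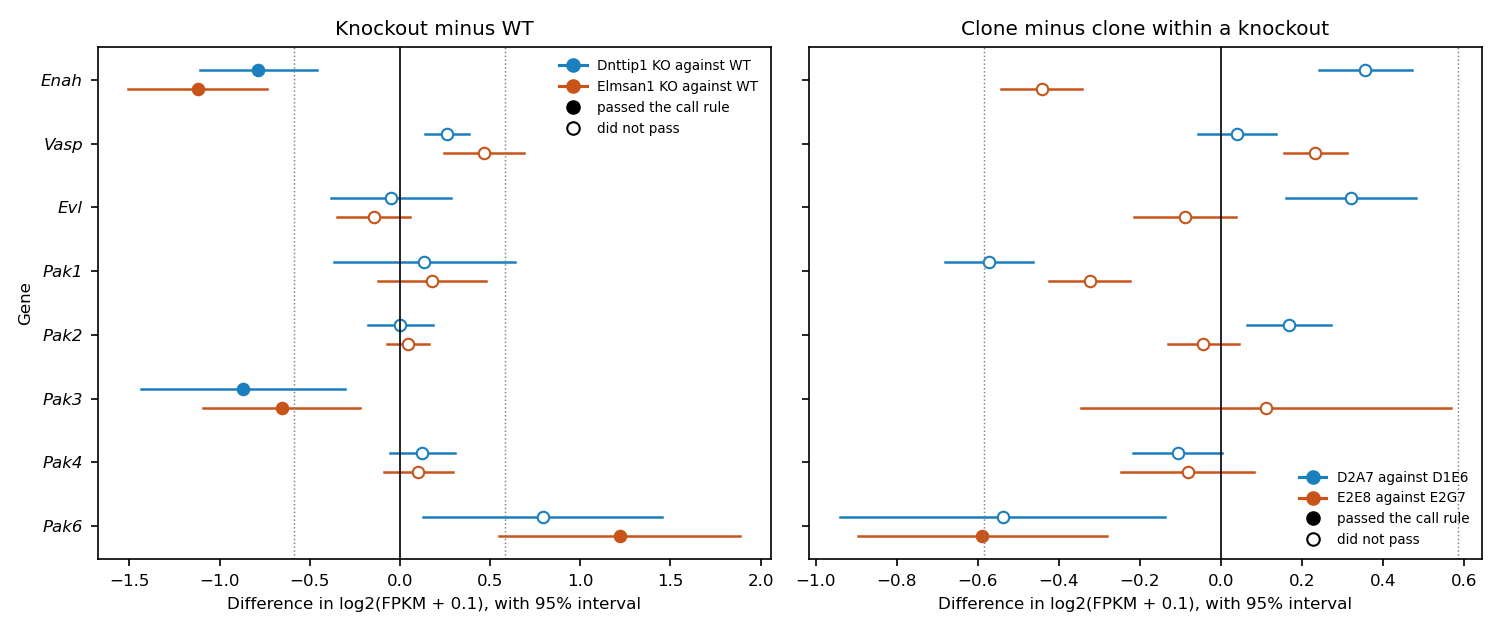
Differences in log2(FPKM + 0.1) with 95% intervals from limma for the 8 genes (y axis), with filled points where the call rule was passed and dotted lines at 1.5-fold. Left, each knockout minus WT, where *Enah* is at -0.79 and -1.12. Right, the first clone minus the second within each knockout, where *Pak1* is at -0.57 and -0.32 and *Pak6* at -0.54 and -0.59 (*Pak3* was not tested between D2A7 and D1E6).

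Clones of the same knockout also differed from each other. Between D2A7 and D1E6, 7 of the 8 genes were tested, *Pak3* being too low, and 0 were called lower in D2A7 against 3.73% of 16996 genes and 0 higher against 9.2%. At an unadjusted p under 0.05, 2 were lower and 3 higher, against 21.9% and 28.9% of all genes, and voom called *Pak6* alone, against 15.4% of all genes in either direction. *Pak1* was lower in D2A7 by a log2 difference of -0.57 (standard error 0.0414, adjusted p = 0.00111), which is 1.49-fold and just under the threshold. *Enah* was higher in D2A7 by 0.36 (adjusted p = 0.00436), *Evl* by 0.32 (adjusted p = 0.0154) and *Pak2* by 0.17 (adjusted p = 0.0286), and *Pak6* was lower, with -0.54 (adjusted p = 0.047). *Vasp* showed no such difference (0.04, interval -0.06 to 0.14).

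Between E2E8 and E2G7, *Pak6* was called lower in E2E8, 1 of 8 genes against 3.27% of 16727, with a log2 difference of -0.59 (standard error 0.118, adjusted p = 0.0137). This is 1.5-fold, at the threshold, and the call was lost without E2E8 replicate 1 (log2 -0.52) or either E2G7 library (-0.65 and -0.53). No gene of the set was called higher, against 10.5% of all genes. *Enah* differed by -0.44 (adjusted p = 0.00154), *Pak1* by -0.32 (adjusted p = 0.00313) and *Vasp* by 0.23 (adjusted p = 0.00391). E2E8 had the lowest *Enah* and the highest *Vasp* of all lines. The share of all genes with an adjusted p under 0.05 and no fold limit was not counted for this pair. Nothing is therefore read from these differences about the set. *Pak3* (0.11, interval -0.35 to 0.57), *Pak2* (-0.04), *Pak4* (-0.08) and *Evl* (-0.09) did not pass.

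Over the 10 libraries, *Enah* and *Vasp* had a Pearson r of -0.92 on the log2 scale, and *Enah* and *Pak6* one of -0.74. These libraries come from 5 lines and share the contrast of WT with KO, so the values describe that contrast and no more. Among 12216 genes that averaged 1 FPKM or more, the patterns most like *Enah* over these libraries were those of *Sod2* (r = 0.997), *Fancm* (0.993) and *Chordc1* (0.988). *Sod2*, the mitochondrial superoxide dismutase, averaged 88.1 FPKM in WT, 61.6 in *Dnttip1* KO and 52.0 in *Elmsan1* KO. *Vasp* was most like *Tnfrsf1a* (0.978), *Prmt7* (0.977) and *BC088983* (0.977). *Pak1* was most like *Slc39a14* (0.991), *Ruvbl1* (0.986) and *Smarcad1* (0.983), *Pak3* like *Rpgr* (0.983), *Add3* (0.977) and *2010109K11Rik* (0.974), and *Pak6* like *Dnmt1* (0.979), *Hist1h1a* (0.972) and *Prpsap1* (0.969). The nearest patterns to *Evl* (*Prr14* 0.950, *Zbtb22* 0.950 and *Mbd1* 0.948), to *Pak2* (*Chmp5* 0.937, *Epm2aip1* 0.926 and *Eef1a1* 0.897) and to *Pak4* (*Zfp219* 0.877, *Gon4l* 0.875 and *Zfp64* 0.865) were less close. Of the genes most like *Vasp*, *Tnfrsf1a* lies on chromosome 6 and *Prmt7* and *BC088983* on chromosome 8, and *Ruvbl1* and *Smarcad1*, named for *Pak1*, lie on chromosome 6. The median log2 difference from WT was 0.35 to 0.37 on chromosome 8 in all 4 clones, and on chromosome 6 it was 0.29 to 0.42 in all but D2A7, and the part of these shifts in the likeness was not tested.

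The genes that flank each member were compared to see whether a whole neighbourhood moved. *Lbr* lies 62044 bases from *Enah* and had log2 differences of -0.16 and 0.02 in *Dnttip1* KO and *Elmsan1* KO, and *Srp9*, 104757 bases away on the other side, had -0.26 in both. Neither was called. *Opa3*, which ends 386 bases from *Vasp*, had 0.12 and 0.09. *Ppm1n*, 4990 bases from *Vasp* on the other side and at 0.919 FPKM in WT, had 0.21 (adjusted p = 0.599) and 0.69 (adjusted p = 0.189), the same sign as *Vasp*, and was not called. Beside *Pak6*, *Bub1b* (-0.13 and -0.11) and *A430105I19Rik* (-0.01 and -0.18) were not called, and *Ammecr1* and *Capn6* beside *Pak3* were not called either. Of the 16 flanking genes only *Eml1*, 15103 bases from *Evl*, was called, lower in both knockouts (-0.78 and -1.20), next to a member that did not pass the test itself. Chromosomes 6 and 8 as a whole stood higher than in WT in several clones, and none of the 8 genes lies on them. On the chromosomes that carry the members, 1, 2, 7, 12, 16 and X, the median log2 difference from WT was between -0.10 and 0.04 in every clone. A median over a chromosome does not show local changes, and the part of any of these shifts in the members' levels was not tested.

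Genes that work with these proteins were looked up in 5 lists with 68 genes in all, of which 64 were tested. In *Dnttip1* KO 0 of them were called lower and 1 higher, against 3.24% and 3.26% of all genes, and in *Elmsan1* KO 0 were called by limma in either direction, against 3.68% and 2.74%. Voom called 1 of them in *Elmsan1* KO, against 5.53% of all genes. The median log2 difference of the 64 genes was -0.01 in *Dnttip1* KO and -0.03 in *Elmsan1* KO, beside 0.02 and 0.00 for all genes. At an unadjusted p under 0.05, 9 were lower and 7 higher in *Dnttip1* KO, against 13.1% and 14.1% of all genes, and 8 lower and 8 higher in *Elmsan1* KO, against 13.6% and 14.2%, so these counts are near the background. Without D1E6 replicate 2, 2 partner genes were called in *Dnttip1* KO, among 1059 genes in all. In *Elmsan1* KO, 1 was called without E2E8 replicate 2 (959 in all) or E2G7 replicate 1 (1145), and 2 without E2G7 replicate 2 (1029). None of the 10 tested PAK adaptors, exchange factors and phosphatases, of the 16 tested genes for LIM kinases, cofilin and other PAK substrates, or of the 27 tested genes for actin nucleation and capping was called in either knockout. *Pak7* was a list by itself.

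Of the 11 tested Ena/VASP partners, only *Tes*, which encodes the focal adhesion protein testin that binds MENA, was called, in *Dnttip1* KO. Its level was 19.7 and 22.3 FPKM in WT, 37.1 in both D2A7 libraries, 41.1 and 41.5 in D1E6, 27.7 and 26.8 in E2E8, and 38.9 and 38.4 in E2G7. The log2 difference was 0.87 in *Dnttip1* KO (standard error 0.0697, adjusted p = 0.00426) and 0.61 in *Elmsan1* KO (standard error 0.184, adjusted p = 0.0898, not called), and the difference between the knockouts of 0.27 did not pass (adjusted p = 0.35). *Tes* lies on chromosome 6, whose median was -0.08 in D2A7 and 0.29 to 0.42 in the other 3 clones, and the part of these shifts in its level was not tested.

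**Figure D5:**
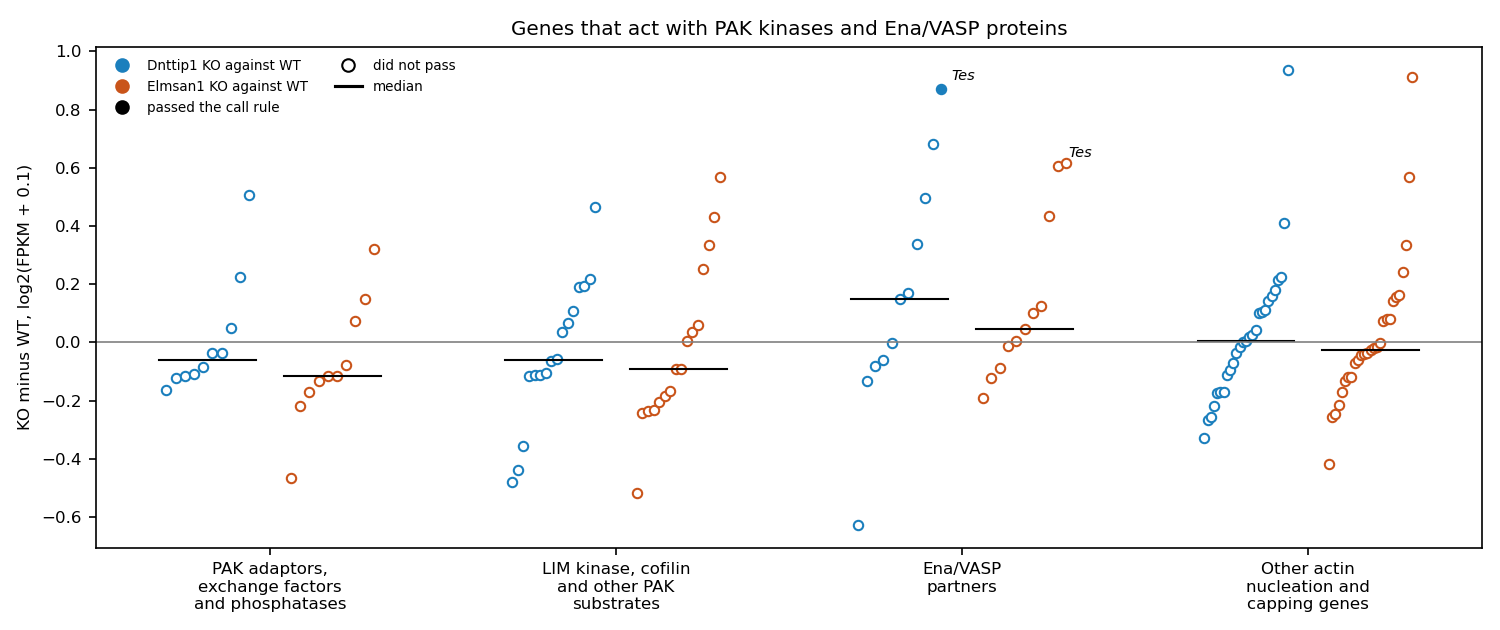
Knockout minus WT in log2(FPKM + 0.1) (y axis) for the 64 tested genes that act with PAK kinases and Ena/VASP proteins, in 4 lists (x axis), blue for *Dnttip1* KO and orange for *Elmsan1* KO, filled where the call rule was passed, with a bar at each median. Only *Tes* (0.87 in *Dnttip1* KO) was called, and its *Elmsan1* KO value of 0.61 was not.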

How the data were processed

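Total RNA of 10 libraries was sequenced as stranded paired-end reads, on instruments not told apart by library. The authors aligned reads to NCBIM37 (mm9), counted them with HTSeq and deposited FPKM values per gene. GENCODE vM20 is named in the methods, whereas 97.2% of identifiers matched vM1, which gave positions and exon lengths here. Low FPKM values were whole multiples of 1 fragment (within 0.05 of a step) in 98.3 to 98.6% of cases, which gave the fragments behind each value. FPKM were scaled by median ratios (factors 0.965 to 1.01), genes with at least 0.1 FPKM in 2 libraries of a comparison were kept, and limma 3.58.1 (R 4.3.3) with a variance trend was fitted to log2(FPKM + 0.1) over the libraries compared, with Benjamini-Hochberg adjustment over all genes. The fold changes are on this scale, which understates changes of low genes. The fit was tested on simulated data in which libraries varied independently, with no spread between clones. That test therefore cannot show how clones affect the p-values.

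The members, the lists of partner genes and the cell markers were chosen with earlier results of these data known. Besides the members, partner genes called in both knockouts, up to 3 more per list called in either, the 3 genes most like each member and its flanking tested genes were named. A further list of partner genes, beside the 5 described, is not reported here. Alternatives were other pseudocounts, filters, scalings and thresholds, no variance trend, voom on recovered fragments, a replicate block, 1 fit of all libraries, correlated libraries within clones, single clones and leaving out each library. Counting intervals were not used, and promoters came from RefSeq (GRCm38.p6).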

Additional observations from a re-analysis of the deposited data

Results flagged for a closer look

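Clones of the same knockout differed from each other in several of the 8 genes, by limma with an adjusted p under 0.05 between 2 libraries of each clone. Such differences were common among all genes. Between D2A7 and D1E6, 21.9% of 16996 genes were lower and 28.9% higher at an unadjusted p under 0.05. With at least 1.5-fold added to the adjusted limit, 2459 of these genes passed, and 2598 of 16727 between E2E8 and E2G7. Without the fold limit, the share of all genes between E2E8 and E2G7 was not counted. D2A7 minus D1E6 gave log2 differences of 0.36 for *Enah*, 0.32 for *Evl*, 0.17 for *Pak2*, -0.57 for *Pak1* and -0.54 for *Pak6*. E2E8 minus E2G7 gave -0.44 for *Enah*, -0.32 for *Pak1*, -0.59 for *Pak6* and 0.23 for *Vasp*. *Enah*, *Pak1* and *Pak6* differed in both pairs. For *Enah* the clone differences are smaller than the distance of every clone from WT, which was -0.61 in the nearest clone. For *Pak1* these distances were -0.15 in D2A7, 0.42 in D1E6, 0.013 in E2E8 and 0.34 in E2G7. The *Pak1* difference of D2A7 from D1E6 is larger than either distance, and that of E2E8 from E2G7 is larger only than that of E2E8. For *Pak6* the distances were 0.52, 1.06, 0.92 and 1.51, and only that of D2A7 is smaller than the difference within its pair. What the clones differ in besides these levels was not tested.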

How the results depend on the processing

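*Enah* was called lower under all 20 alternatives in *Elmsan1* KO and under 19 of 20 in *Dnttip1* KO. Of the 8 genes, 1 instead of 2 was called in *Dnttip1* KO with a pseudocount of 1 or 0.01, a mean of at least 1 FPKM, an adjusted p under 0.05, the replicate block, correlated libraries or D2A7 alone, and 0 to 2 without single libraries (0 without WT replicate 1). In *Elmsan1* KO, 1 instead of 3 was called with a pseudocount of 1, a mean of at least 1 FPKM, correlated libraries or E2E8 alone, and 1 to 2 without single libraries. Between D2A7 and D1E6, 2 were called instead of 0 after quantile normalization, 1 by voom and 0 to 1 without single libraries (1 without D2A7 replicate 2 or D1E6 replicate 1). Between E2E8 and E2G7, 0 instead of 1 were called with a pseudocount of 1, a mean of at least 1 FPKM, unscaled FPKM or all libraries in 1 fit, and 0 to 1 without single libraries. Partner genes called in *Dnttip1* KO numbered 2 after quantile normalization or with D1E6 alone, 4 with all libraries in 1 fit, 5 with D2A7 alone and 1 to 2 without single KO libraries, instead of 1. In *Elmsan1* KO they numbered 2 with unscaled FPKM, 1 by voom or with E2G7 alone, 3 with all libraries in 1 fit, 5 with E2E8 alone and 0 to 2 without single KO libraries, instead of 0. Over all genes, 1134 were called in *Dnttip1* KO and 1105 in *Elmsan1* KO in the main fit. With all libraries in 1 fit these numbers were 2161 and 1958, and with a pseudocount of 1 they were 540 and 525. With single clones 2513 (D2A7), 1607 (D1E6), 2536 (E2E8) and 1584 (E2G7) genes were called. The number called thus changed with the setting for all genes as well as for the listed ones. The sign of small differences turned for *Pak1* in *Dnttip1* KO with D2A7 alone (-0.15), *Pak2* in *Dnttip1* KO after quantile normalization (-0.0048), with D1E6 alone (-0.082) or without single libraries (-0.037 to 0.039), *Evl* in *Dnttip1* KO with D2A7 alone (0.11) or without single libraries (-0.14 to 0.040), *Pak1* (-0.14 to 0.067) and *Pak4* (-0.019 to 0.052) between the knockouts without single libraries, *Pak3* between E2E8 and E2G7 after quantile normalization (-0.034) and *Pak4* between them without single libraries (-0.17 to 0.0015). Except where a filter removed *Pak3* and *Pak6*, the cause was not tested. Replicate numbers did not pair the libraries (1 of 10 pairs of lines correlated above 0.1), and with the replicate block 1 of the 8 genes was called in *Dnttip1* KO and 2 in *Elmsan1* KO. Depth limits *Pak3* and *Pak6*, which rest on as few as 20 and 32 fragments. Where a single WT library remained, its spread was taken to be that of the other lines.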
